A study of Mus musculus with 12 samples.

Results

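A set of 9 genes that mark macrophages was followed through mouse osteoclast cultures: Lyz2, F13a1, Adgre1, Adgre4, Csf1r, Mrc1, Ms4a7, Cd68 and Mertk. They were taken by gene name from the deposited table, where all 9 were found among 55806 genes, and all 9 reached 1 FPKM in at least 3 of the 12 libraries and were tested. FPKM is a level per length: fragments on a gene, divided by the gene's length and by the fragments in the library. Monocytes from the bone marrow of mice aged 8 to 12 weeks were cultured with the cytokines M-CSF and RANKL for 4 days, which turns them into osteoclasts, the bone-resorbing cells. The 12 RNA-seq libraries formed 4 groups of 3, controls and Per1 knockouts of each sex. Every group had the same culture, and same-numbered libraries carry the same batch number in the labels. The library names mark the knockout as conditional. The labels used here name no strain, no Cre driver and no deleted part of Per1, and do not say whether animals were pooled. They call the replicates biological without saying whether each came from its own animal. A p-value here reflects the spread between the 3 cultures of a group, pooled over all 4 groups, of which some may be technical.

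Macrophages and osteoclasts arise from the same monocytes. M-CSF acts through Csf1r and keeps the precursors alive, and RANKL then drives them to fuse and to take on osteoclast genes, while many genes of the macrophage state are turned down. Transcripts of macrophage markers in such a culture can come from mononuclear cells that have not fused or from the osteoclasts themselves. In bulk RNA, fewer cells of a type and less RNA per cell cannot be told apart.

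Libraries held 15366600 to 24346288 fragments on genes. Per1 was at 3.70, 3.63 and 2.69 FPKM in male controls and at 2.36, 2.66 and 2.99 in male knockouts, and at 2.46, 3.33 and 3.03 in female controls and 4.04, 3.83 and 2.82 in female knockouts. The groups overlapped in both sexes and the Per1 transcript did not differ past the test (limma adjusted p = 0.448 in males and 0.542 in females), so "knockout" below means the libraries labelled so. A set of 4 libraries, male control 3, male knockout 1 and female controls 1 and 3, had 0.437% to 0.527% of fragments on rRNA genes, against 1.16% to 1.48% in the other 8. Female control 2 and female knockouts 1 and 2 stood apart by interferon response genes, with scores of 1.67 to 2.01 (mean deviation of 14 genes on the log2 scale) against -1.01 to 0.325 in the other 9. All 18 osteoclast genes listed passed the filter, with summed levels of 10550 to 18665 FPKM. Of 11 neutrophil markers all 11 passed, with sums of 1458 to 3020 FPKM, led by S100a9. Sums were 10.8 to 36.0 FPKM for 8 lymphocyte markers, 16.6 to 46.7 for 6 of mast cells, basophils and eosinophils, and 0.340 to 3.52 for 8 stromal markers. They were 1.30 to 7.37 FPKM for 7 erythroid markers and 1.75 to 7.54 for 5 endothelial markers. Of all these the mast cell gene Tpsb2 was listed at 0 in every library.

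The 9 markers spanned more than 3 orders of magnitude in level per length. Lyz2 was highest at a mean of 6531 FPKM over the 12 libraries, second among all genes of the table by that mean. It was not separated from Ctsk, the collagen-degrading cathepsin K of osteoclasts, at a mean of 6085 FPKM, since Lyz2 was the higher of the pair in 6 of 12 libraries and the lower in all 3 male knockouts. Cd68 followed at 709 FPKM, Csf1r at 265 and Adgre1 at 93.8. Ms4a7 at 18.6 and F13a1 at 16.9 FPKM were not separated, since Ms4a7 was the higher of the pair in 5 of 12 libraries. Adgre4 at 9.65 and Mrc1 at 9.54 FPKM were likewise not separated, with Adgre4 higher in 8 of 12, and Mertk was lowest at 3.94 FPKM. Cd68 and Csf1r varied least between libraries, by 1.36-fold and 1.40-fold from lowest to highest. Adgre4 varied 6.23-fold and Ms4a7 5.09-fold, and the other members 2.10-fold to 3.06-fold.

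**Figure D1:**
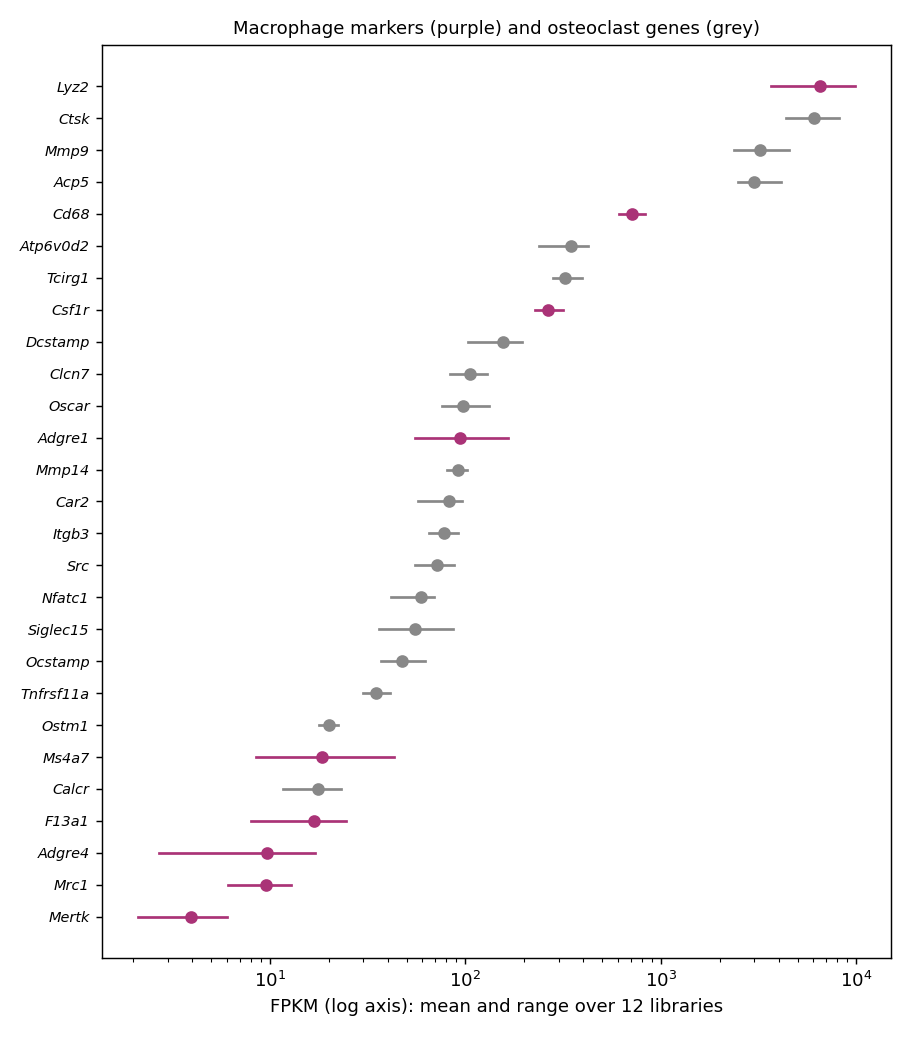
Mean FPKM (points) and range over 12 libraries (lines) on a log axis for the 9 macrophage markers (purple) and 18 osteoclast genes (grey). The Lyz2 and Ctsk ranges overlap at the top, while Ms4a7, F13a1, Adgre4, Mrc1 and Mertk lie among or below the lowest of them.

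The first comparison asked whether the 9 markers differed by genotype label in males. All 9 had lower fitted levels in the libraries labelled knockout, with a median change of -0.51 on the log2(FPKM + 1) scale, where 51.2% of all genes tested were on the negative side and their median was -0.0049. The ratio of mean FPKM was lowest for Adgre4, at 35.9% of control, and for F13a1, at 52.2% of control. By limma 0 of 9 passed an adjusted p of 0.05, where 0.00817% of all genes did, and voom on rebuilt fragments passed 0 of 9 too. At an unadjusted p under 0.05 there were 6 of 9 on the lower side, against 6.54% of all genes. In 5 of 9, Adgre4, F13a1, Mrc1, Mertk and Csf1r, every library labelled knockout lay below every control, which held for 10.9% of all genes. The 9 genes were chosen with earlier results of these data known, and most vary together. Their counts beside the shares of all genes therefore describe and do not test an excess.

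**Figure D2:**
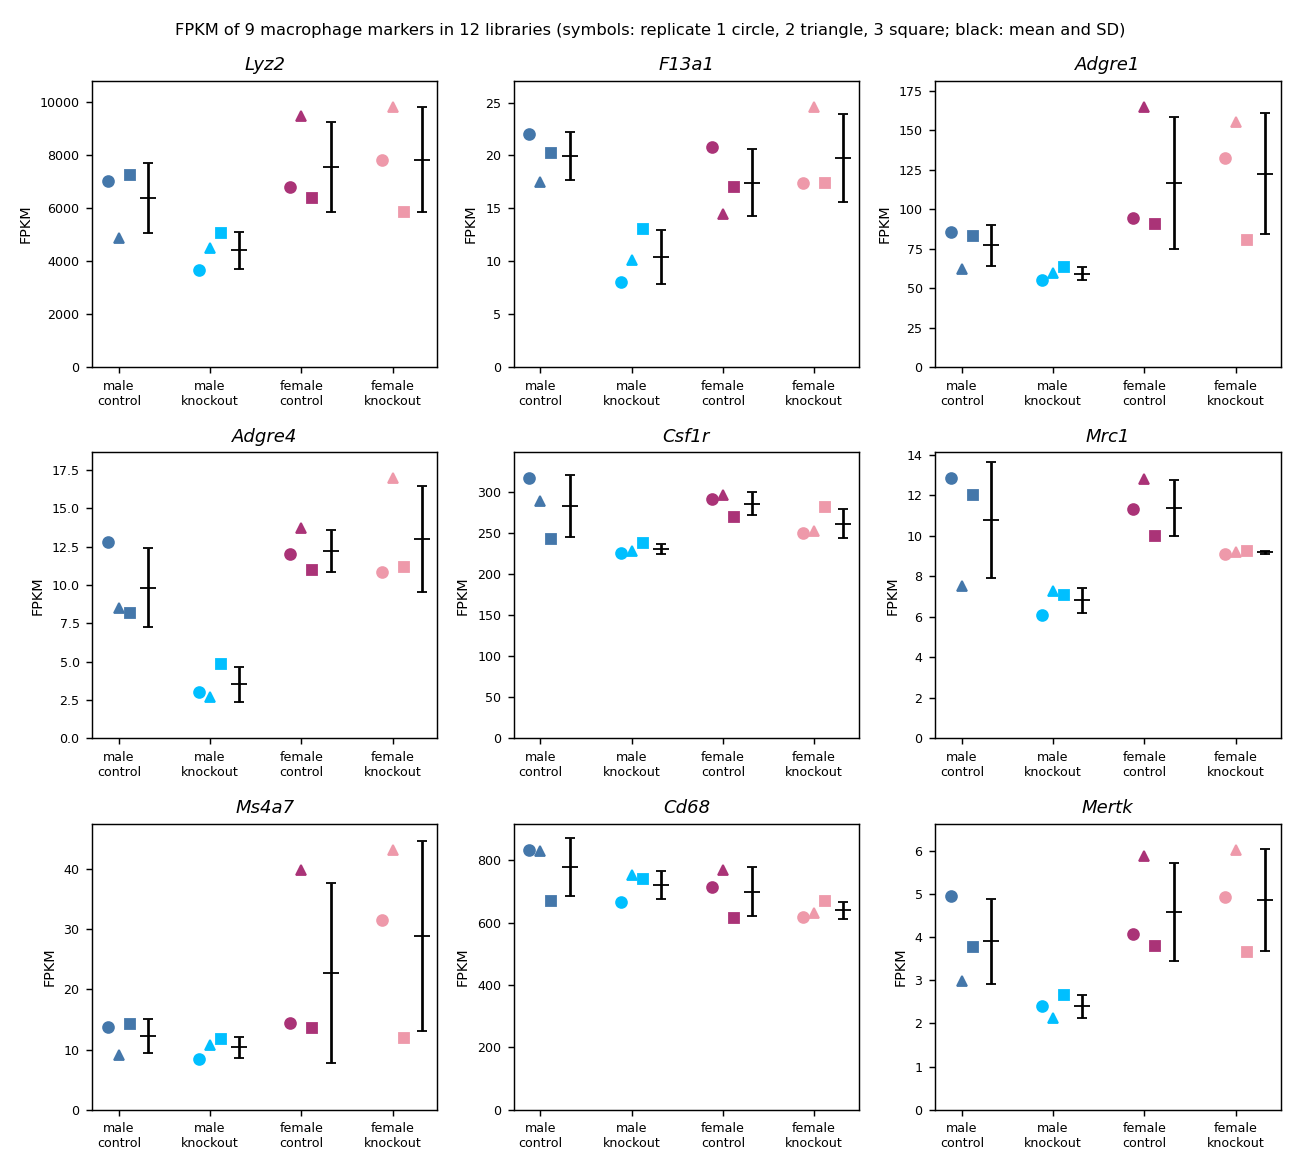
FPKM of each marker (vertical axes, from 0) in the 3 libraries of each of 4 groups; symbols give the replicate number and black bars the mean and SD. The male knockout points lie below all male controls for Adgre4, F13a1, Mrc1, Mertk and Csf1r, and female control 2 and female knockouts 1 and 2 stand high for Ms4a7 and Adgre1.

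Secreted proteins come first by role. Lyz2 (ENSMUSG00000069516) encodes the lysozyme of myeloid cells, an enzyme that cuts bacterial cell walls. It was at 7018, 4866 and 7226 FPKM in male controls 1, 2 and 3 and at 3667, 4480 and 5059 in male knockouts 1, 2 and 3. The groups overlapped, because control 2 lay below knockout 3, although the knockout was the lower library in 3 of 3 same-numbered pairs. The means were 6370 ± 1307 and 4402 ± 699 FPKM (SD, n = 3), and the log2 change was -0.52 (SE 0.229; limma adjusted p = 0.325). Of all fragments in a library, 0.501% to 1.32% came from Lyz2. Neutrophils carry lysozyme as well, and the 11 neutrophil markers summed to 1458 to 2895 FPKM in male controls and 1515 to 2152 in male knockouts. Of their changes 7 of 11 were negative, against 51.2% of all genes, with a median of -0.11. Their part in the Lyz2 values was not tested.

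Lyz2 has a close copy beside it, Lyz1, and counting could split reads between them. The first 90 coding bases of each, from GENCODE M21 transcripts on GRCm38, are shown to let this likeness be seen, with the bases that differ in capitals.
Lyz2: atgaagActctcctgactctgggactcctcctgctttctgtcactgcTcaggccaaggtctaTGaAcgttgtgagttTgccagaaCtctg
Lyz1: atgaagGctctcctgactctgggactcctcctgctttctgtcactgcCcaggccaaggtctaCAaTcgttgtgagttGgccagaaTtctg
Over the whole coding sequence of 447 bases the genes differed at 22 positions (95.1% identity), and 15.4% of the 50-base words of the Lyz2 transcript occurred in Lyz1. Lyz1 was at 10.2 to 40.8 FPKM, only 0.237% to 0.416% of the Lyz2 level in the same library, so the level of Lyz1 is uncertain.

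F13a1 (ENSMUSG00000039109) encodes the A chain of coagulation factor XIII, a transglutaminase that monocytes and macrophages make. It was at 22.0, 17.5 and 20.3 FPKM in male controls and at 8.03, 10.1 and 13.05 in male knockouts. All 3 libraries labelled knockout lay below all controls. The means were 19.9 ± 2.28 and 10.4 ± 2.52 FPKM (SD, n = 3), and the log2 change was -0.89 (SE 0.186; limma adjusted p = 0.105), which did not pass.

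Adgre1 and Adgre4 encode adhesion receptors of the same family, and the Adgre1 protein is the antigen by which mouse tissue macrophages are usually stained. Adgre1 (ENSMUSG00000004730) was at 85.6, 62.3 and 83.3 FPKM in male controls and at 55.0, 59.6 and 63.1 in male knockouts. The groups overlapped by control 2 alone (log2 change -0.36, SE 0.264 by limma, adjusted p = 0.56). The fit pools the spread over both sexes. The SD of Adgre1 was 12.8 and 4.09 FPKM in male controls and knockouts, against 41.7 and 38.3 in female ones. Adgre4 (ENSMUSG00000032915) was at 12.8, 8.51 and 8.17 FPKM in male controls and at 3.02, 2.72 and 4.85 in male knockouts. Its highest knockout library lay well under the lowest control, and the knockout was at 23.5% to 59.4% of control within the 3 same-numbered pairs. The means were 9.84 ± 2.60 and 3.53 ± 1.15 FPKM (SD, n = 3), and the log2 change was -1.26 (SE 0.218; limma adjusted p = 0.0852), the lowest adjusted p of the 9. It passed without male control 3 (limma adjusted p = 0.0489) and with a term for the rRNA share (0.0454), and its adjusted p ranged from 0.0454 to 0.375 over the alternatives. The Adgre1 and Adgre4 transcripts share no word of 50 bases, and the Adgre4 level was 9.82% to 15.0% of that of Adgre1 in male controls and 4.57% to 7.69% in male knockouts.

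Csf1r and Mertk encode receptor tyrosine kinases. Csf1r (ENSMUSG00000024621), the receptor for M-CSF, was at 317, 289.7 and 243 FPKM in male controls and at 226, 229 and 238 in male knockouts. The groups were apart by a small gap, between control 3 and knockout 3. The means were 283 ± 37.4 and 231 ± 6.26 FPKM (SD, n = 3), and the log2 change was -0.29 (SE 0.096; limma adjusted p = 0.216). Mertk (ENSMUSG00000014361), through which macrophages take up dying cells, was at 4.96, 3.00 and 3.76 FPKM in male controls and at 2.42, 2.12 and 2.66 in male knockouts. Every knockout library was below every control (log2 change -0.51, SE 0.188 by limma, adjusted p = 0.246). Mertk values rested on 167 to 471 fragments and Adgre4 values on 168 to 1042, the fewest of the 9.

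Mrc1 (ENSMUSG00000026712), the mannose receptor that takes up glycoproteins, was at 12.8, 7.51 and 12.0 FPKM in male controls and at 6.11, 7.25 and 7.08 in male knockouts. Control 2 lay only just above the knockouts, while controls 1 and 3 lay far above (log2 change -0.56, SE 0.158 by limma, adjusted p = 0.152). Cd68 (ENSMUSG00000018774), a glycoprotein of late endosomes and lysosomes that osteoclasts carry too, was at 833, 829.9 and 669.7 FPKM in male controls and at 667, 752 and 740.0 in male knockouts. The groups overlapped, with a log2 change of -0.11 (95% interval -0.35 to 0.13, limma adjusted p = 0.697). Ms4a7 (ENSMUSG00000024672), a membrane protein of the Ms4a family, was at 13.7, 9.08 and 14.2 FPKM in male controls and at 8.50, 10.8 and 11.8 in male knockouts. These groups overlapped as well (log2 change -0.22, 95% interval -1.24 to 0.80, limma adjusted p = 0.87). The SD of Ms4a7 was 2.83 and 1.68 FPKM in male controls and knockouts, against 14.9 and 15.8 in female ones. The male interval carries this female spread, because the fit pools it.

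The rRNA share splits each male group unevenly. Within the libraries of higher share, 2 controls and 2 knockouts, the knockout mean was 35.5% of control for Adgre4, 58.7% for F13a1, 60.0% for Mertk, 70.5% for Mrc1 and 76.9% for Csf1r. It was 80.3% for Lyz2, 83.0% for Adgre1, 89.7% for Cd68 and 98.9% for Ms4a7. In the single pair of lower share, control 3 and knockout 1, it was 36.9% for Adgre4, 39.6% for F13a1, 50.8% for Lyz2, 50.9% for Mrc1 and 59.9% for Ms4a7. The same pair gave 64.2% for Mertk, 66.0% for Adgre1, 92.9% for Csf1r and 99.7% for Cd68. In females the higher class held 1 control and 3 knockouts, where Mrc1 was at 71.8% of control, and the lower class held 2 controls alone. In males the order of the members changed with the class, and Adgre4 was lowest in both.

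**Figure D3:**
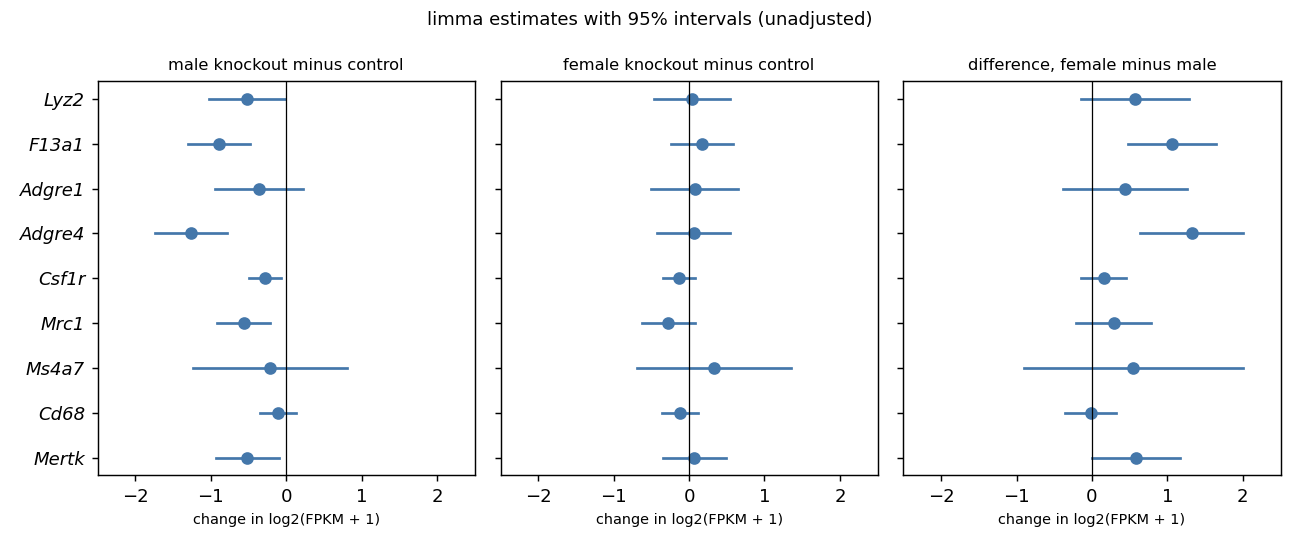
Difference in log2(FPKM + 1) by limma (points) with unadjusted 95% intervals (lines) for each marker in males, in females, and as female minus male difference. Male intervals of Adgre4, F13a1, Mrc1, Csf1r, Mertk and Lyz2 lie below 0 and all female intervals include 0, while no marker passed after adjustment.

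In females the same question was put. The markers lay on both sides, with 3 of 9 changes negative against 52.1% of all genes, and a median log2 change of 0.06 against -0.0083 over all genes. By limma 0 of 9 passed (0% of all genes did), 0 of 9 had an unadjusted p under 0.05 (11.4% of all genes), and voom passed 0. Only Mrc1 had all libraries labelled knockout below all controls, which held for 6.85% of all genes.

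Lyz2 was at 6785, 9468 and 6355 FPKM in female controls 1, 2 and 3 and at 7790, 9801 and 5852 in female knockouts 1, 2 and 3 (log2 change 0.04, 95% interval -0.46 to 0.55, limma adjusted p = 0.946). F13a1 was at 20.8, 14.5 and 17.0 FPKM in controls and at 17.4, 24.6 and 17.4 in knockouts (log2 change 0.17, limma adjusted p = 0.701). In neither secreted protein were the groups apart, and in F13a1 the lowest and the highest female library were control 2 and knockout 2. Adgre1 was at 94.6, 165 and 90.6 FPKM in controls and at 132, 155 and 80.3 in knockouts (log2 change 0.07, limma adjusted p = 0.918). Adgre4 was at 12.0, 13.7 and 11.0 FPKM in controls and at 10.9, 17.0 and 11.2 in knockouts (log2 change 0.06, 95% interval -0.42 to 0.54, limma adjusted p = 0.917). For both receptors the female groups overlapped throughout.

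Csf1r was at 292, 297 and 270.0 FPKM in female controls and at 250.1, 253 and 282 in female knockouts (log2 change -0.13, limma adjusted p = 0.58). Mertk was at 4.08, 5.89 and 3.79 FPKM in controls and at 4.92, 6.03 and 3.65 in knockouts (log2 change 0.07, limma adjusted p = 0.884). Neither kinase had separate groups. Mrc1 was at 11.3, 12.8 and 9.997 FPKM in controls and at 9.10, 9.19 and 9.23 in knockouts (log2 change -0.28, 95% interval -0.63 to 0.07, limma adjusted p = 0.495). Its knockout libraries lay close together, with an SD of 0.0624 FPKM against 1.39 in controls. Cd68 was at 715, 769 and 614 FPKM in controls and at 617, 632 and 669.6 in knockouts (log2 change -0.12, limma adjusted p = 0.641). Ms4a7 was at 14.5, 39.9 and 13.7 FPKM in controls and at 31.5, 43.2 and 11.9 in knockouts (log2 change 0.33, 95% interval -0.69 to 1.35, limma adjusted p = 0.766). Cd68 and Ms4a7 groups overlapped, and Ms4a7 split within both groups.

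Averaged over both sexes, 0 of 9 passed limma, where 0.00817% of all genes did, 4 of 9 had an unadjusted p under 0.05 on the lower side against 5.43% of all genes, and voom passed 0. The difference of the knockout change between the sexes was tested as an interaction. It was positive, so less negative in females, for 8 of 9 markers (50.9% of all genes were on the negative side), and 0 of 9 passed limma (0% of all genes) or voom. At an unadjusted p under 0.05 there were 2 of 9, against 7.49% of all genes on that side. These were Adgre4, with a difference of 1.32 on the log2 scale (95% interval 0.64 to 2.00, limma adjusted p = 0.18), and F13a1, with 1.06 (95% interval 0.48 to 1.64, limma adjusted p = 0.192). A difference between the sexes was therefore not established for any of the 9. Between female and male controls 0 of 9 passed limma (0.0572% of all genes did) or voom, and 0 had an unadjusted p under 0.05 (5.57% of all genes). Adgre1 was the 1 marker whose female controls all lay above the male controls, at 90.6 to 165 against 62.3 to 85.6 FPKM, a position that 5.53% of all genes shared (log2 difference 0.55, limma adjusted p = 0.865).

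Several markers were high in the 3 female libraries of high interferon score, which include a control and 2 knockouts. Ms4a7 was at 31.5 to 43.2 FPKM there and at 8.50 to 14.5 in the other 9 libraries. Adgre1 was at 132 to 165 FPKM against 55.0 to 94.6, Lyz2 at 7790 to 9801 against 3667 to 7226, and these ranges did not overlap. Mertk, at 4.92 to 6.03 against 2.12 to 4.96 FPKM, overlapped by male control 1 alone. Against the other 3 female libraries, the mean of the 3 was 2.86-fold for Ms4a7, 1.70-fold for Adgre1, 1.46-fold for Mertk and 1.42-fold for Lyz2. The same ratio was 1.22 for Adgre4, 1.02 for F13a1, 1.02 for Mrc1, 1.01 for Cd68 and 0.948 for Csf1r. These libraries were grouped by a measured score, so no test was made, and the part of the interferon response in the values was not tested. With the 3 left out, female knockout 3 stood against 2 controls, and the fitted female change of Ms4a7 was -0.23 in place of 0.33 and that of Adgre1 -0.20 in place of 0.07.

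**Figure D4:**
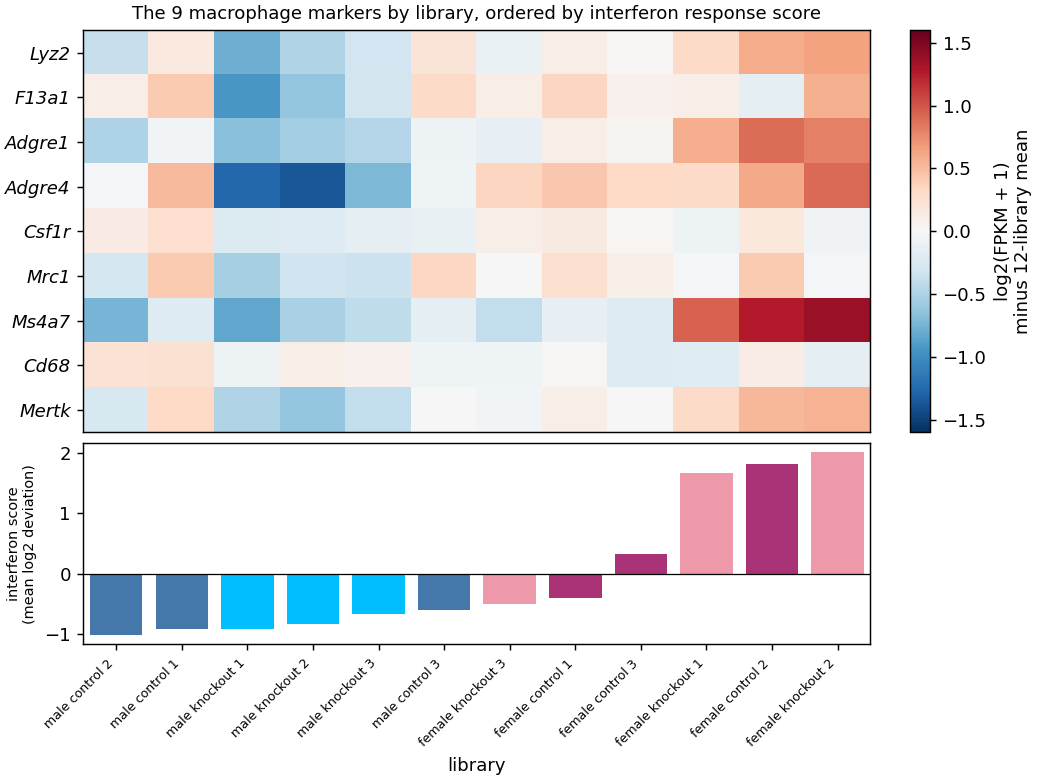
Deviation of each marker's log2(FPKM + 1) from its mean over 12 libraries (colour), with libraries ordered by interferon score (bars, mean log2 deviation of 14 genes). Ms4a7, Adgre1, Lyz2 and Mertk are red in the 3 libraries of highest score, and the male knockout columns are blue for most markers.

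Over the 12 libraries Pearson's r with the interferon score was 0.96 for Ms4a7, 0.926 for Adgre1, 0.79 for Lyz2 and 0.766 for Mertk. It was 0.589 for Adgre4, 0.316 for F13a1, 0.316 for Mrc1, 0.0612 for Csf1r and -0.464 for Cd68. Libraries fall into separate clusters by the score and share sex with it, so these values describe this set of libraries. With the score of the 18 osteoclast genes r was 0.70 for Cd68 and 0.366 for Csf1r, and it was -0.765 to -0.21 for the other 7.

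**Figure D5:**
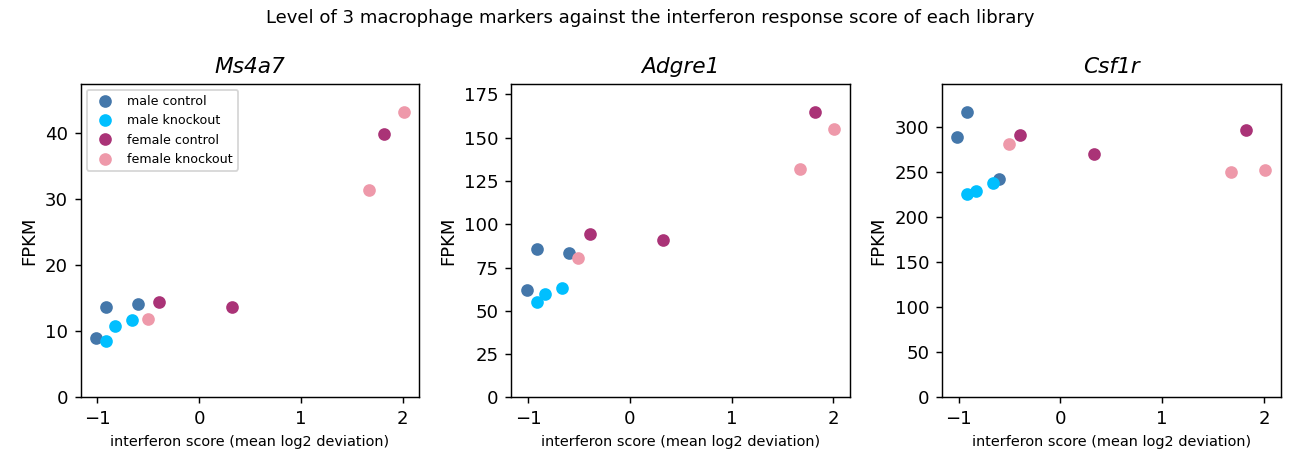
FPKM of Ms4a7, Adgre1 and Csf1r (vertical axes, from 0) against the interferon score (horizontal axes) in each library, coloured by group. Ms4a7 and Adgre1 are highest in the 3 libraries at the right, and Csf1r, at 226 to 317 FPKM, shows no such step.

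Most markers varied together. Of 36 pairs 30 had a positive r over the 12 libraries, with a median of 0.667, and after removing group means 33 were positive with a median of 0.414. Adgre1 and Ms4a7 had an r of 0.993 after removing group means, Lyz2 and Adgre1 0.929 and Adgre1 and Mertk 0.91. By the same measure Csf1r and Cd68 went together, with an r of 0.85, and against Lyz2 they had -0.143 and 0.0841. With group means left in, the r over the 12 libraries was 0.466 for Csf1r and Cd68. Against Lyz2 it was then 0.437 for Csf1r and -0.206 for Cd68. The split by interferon score lies within both female groups, so removing group means leaves it in these values. Pairs also share library, depth and composition, so these values describe and do not test.

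The protein-coding genes with the most similar pattern, by Pearson's r of log2(FPKM + 1) over 12 libraries, were named as a description. They were Sorl1 (r = 0.987) and Rcbtb2 (0.986) for Lyz2, and Ptafr (0.993) and the complement gene C3 (0.992) for Adgre1. For Ms4a7 they were its relative Ms4a6d (0.991) and Shisa5 (0.99), and for Mertk Slc9a3r1 (0.985) and Selenop (0.98). F13a1 was most like Ccng2 (0.976) and Selenbp1 (0.972), and Adgre4 most like Ankrd44 (0.975) and Kctd12 (0.974). The best matches were looser for Csf1r, with Tnfaip2 (0.933) and Pnpla2 (0.924), for Mrc1, with 2510009E07Rik (0.933) and Itgb5 (0.933), and for Cd68, with Cox6a1 (0.91) and Capzb (0.908).

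Other monocyte and macrophage genes were followed as a list of 28, of which 26 were tested. In males 25 of 26 were negative (51.2% of all genes) with a median log2 change of -0.40. By limma 1 passed, lower (0.00817% of all genes), and 6 had an unadjusted p under 0.05 on the lower side (6.54% of all genes). The gene that passed was Cx3cr1, the fractalkine receptor, at 23.3, 24.0 and 21.9 FPKM in male controls and 4.19, 6.39 and 7.77 in male knockouts (log2 change -1.79, limma adjusted p = 0.00856). Its call was lost in 7 of 27 alternatives, which were the fits without male control 1, without male control 2, without male knockout 2, without the 3 libraries of high interferon score, of the 8 libraries of higher rRNA share, of the male groups alone and with the replicate block within sex. Its adjusted p ranged from 9.54e-04 to 0.139 over them all, by limma, and its log2 change ranged from -1.96 to -1.35. Low unadjusted p-values were also seen for the chemokine receptor Ccr2, at 43.0 ± 4.21 and 22.7 ± 5.99 FPKM (SD, n = 3), and the integrin chain Itgam, at 35.4 ± 3.11 and 28.2 ± 0.819. Neither passed, with limma adjusted p of 0.131 and 0.152. Spi1, which encodes the myeloid factor PU.1, was at 202 ± 20.3 and 201 ± 10.3 FPKM. In females 22 of 26 were positive with a median of 0.29, where 52.1% of all genes were negative. The mean log2 deviation of the list was 0.887 in female control 2 and 0.694 and 0.986 in female knockouts 1 and 2. These are the libraries of high interferon score. It was -0.0706 and -0.0390 in female controls 1 and 3 and -0.211 in female knockout 3. This split is uneven between the groups, and its part in the female changes was not tested. By limma 0 of the 26 passed in females (0% of all genes did). At an unadjusted p under 0.05 there was 1, on the lower side, where 6.09% of all genes were, and it was Cx3cr1 (22.3, 29.2 and 24.6 FPKM in controls and 11.3, 13.4 and 9.93 in knockouts).

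Lists of other cell states were read beside the markers. In males all 8 dendritic cell and MHC class II genes tested were negative (median -0.45), with summed levels of 444 to 612 FPKM over the 10 listed in controls and 289.97 to 418 in knockouts. All 10 cell cycle genes were positive (median 0.34), with sums of 300.1 to 374 and 392 to 421 FPKM. The 18 osteoclast genes had 14 negative changes with a median of -0.039. Of all genes tested 51.2% were negative in males. In each of these lists 0 passed limma in males (0.00817% of all genes did). At an unadjusted p under 0.05 there were 5 of 8 dendritic cell and MHC class II genes on the lower side (6.54% of all genes), 6 of 10 cell cycle genes on the higher side (8.09% of all genes) and 0 of 18 osteoclast genes. In females all 8 dendritic cell and MHC class II genes were positive (median 0.13), and 7 of 10 cell cycle genes were negative (median -0.12). The osteoclast genes were negative for 17 of 18 (median -0.16), and 52.1% of all genes were negative in females. In that comparison 0 members of these lists passed limma (0% of all genes did). On the lower side 4 of 18 osteoclast genes had an unadjusted p under 0.05, against 6.09% of all genes. The part of these states in the marker values was not tested, nor was the part of the uneven interferon split in the female counts.

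Ligands and relatives of the markers were examined as a further list of 17. The Csf1r ligands were low, with Csf1 at 0.535 to 1.97 FPKM and Il34 at 0.288 to 1.21, in cultures that received M-CSF as a protein. Of the Mertk ligands, Gas6 was at 4.91 to 10.3 FPKM and Pros1 at 1.84 to 3.11. The related kinase Axl was at 12.0 to 41.8 FPKM, above Mertk in every library, and Tyro3 was at no more than 0.0271. The receptor kinases Kit and Flt3 were at 0.718 to 1.46 and 0.788 to 2.07 FPKM. Adgre5 was at 52.7 to 67.9 FPKM, and Mrc2 reached no more than 0.153. The lysosomal proteins Lamp1 and Lamp2, relatives of Cd68, were at 208 to 404 and 24.9 to 57.5 FPKM. Relatives of Ms4a7 showed the split of the 3 libraries of high interferon score more widely, with Ms4a4c at 82.9 to 134 FPKM there and 4.77 to 18.2 elsewhere, Ms4a6b at 36.5 to 56.0 and 4.01 to 13.04, and Ms4a4a at 21.4 to 32.1 and 1.51 to 10.5. F13b was listed at 0. By limma 0 of the 14 tested passed in either sex (0.00817% of all genes did in males and 0% in females). On the lower side 1 of the 14 had an unadjusted p under 0.05 in males, Gas6, against 6.54% of all genes. In females it was 1 of the 14 too, Pros1, against 6.09% of all genes. Both counts were near the share over all genes.

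Promoter sequence was read for 7 of the 9 genes (RefSeq, GRCm38.p6), as the 250 bases before each of 9 transcription starts; Adgre1 and Csf1r are named only. Windows of 4 genes are shown, Mrc1 and Cd68 because they hold the core letters of the PU.1 motif, GAGGAA on either strand (in capitals). Lyz2 and Ms4a7 are shown as a pair that varied together (r = 0.889 over 12 libraries). They are not the pair of highest r, since Lyz2 and Mertk had 0.95. For Ms4a7 the window of 1 of its starts is shown.
Mrc1, chr2:14229164-14229413, plus strand: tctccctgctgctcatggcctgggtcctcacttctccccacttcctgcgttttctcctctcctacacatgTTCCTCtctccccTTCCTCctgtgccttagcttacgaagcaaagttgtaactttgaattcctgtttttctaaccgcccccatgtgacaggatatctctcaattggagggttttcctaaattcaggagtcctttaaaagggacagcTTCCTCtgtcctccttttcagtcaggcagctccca
Cd68, chr11:69666171-69666420, minus strand: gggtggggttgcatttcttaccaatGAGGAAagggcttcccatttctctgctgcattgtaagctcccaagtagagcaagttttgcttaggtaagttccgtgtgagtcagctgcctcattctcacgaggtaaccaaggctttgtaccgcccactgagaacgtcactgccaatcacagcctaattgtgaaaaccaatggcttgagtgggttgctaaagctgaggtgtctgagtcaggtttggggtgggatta
Lyz2, chr10:117282273-117282522, minus strand: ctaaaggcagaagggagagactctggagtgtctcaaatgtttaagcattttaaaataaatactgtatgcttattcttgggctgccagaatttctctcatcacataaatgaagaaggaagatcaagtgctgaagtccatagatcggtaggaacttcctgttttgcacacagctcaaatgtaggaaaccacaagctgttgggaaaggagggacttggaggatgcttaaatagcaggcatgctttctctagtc
Ms4a7, chr19:11336147-11336396, minus strand: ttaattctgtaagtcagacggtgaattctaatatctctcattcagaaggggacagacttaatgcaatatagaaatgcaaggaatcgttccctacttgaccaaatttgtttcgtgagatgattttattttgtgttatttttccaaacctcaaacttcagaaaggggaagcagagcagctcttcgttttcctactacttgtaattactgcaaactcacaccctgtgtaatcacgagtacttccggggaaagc
GAGGAA occurred in 3 of the 9 windows, those of Mrc1 (3 times), Cd68 and 1 start of F13a1, and in 23.3% of 32851 windows of all genes. The interferon-stimulated response element, searched as GAAA repeated after a gap of 2 bases, occurred in 0 of 9 and in 2.98% of all windows. The AP-1 letters TGAGTCA were in the Cd68 window (4.46% of all). Both strands were searched, none of the 3 strings contains another, and a match describes letters and not a bound site.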

How the data were processed

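RNA-seq libraries of 12 osteoclast cultures were analysed. The authors deposited FPKM per gene; HISAT2 2.0.5, featureCounts 1.5.0-p3 and mm10 are named in the submitters' processing notes, without roles, and the sources used here do not state use of strand. Gene lengths (another unit) are those the authors deposited. Gene coordinates in the table were identical to GENCODE M21 on GRCm38 for 2.87% of 52080 shared identifiers, so none are printed. FPKM times length was a whole multiple of 1 step for 100% of values (tolerance 0.01), which gave fragments of 15366600 to 24346288 per library. At that depth 3 fragments on 1 kb are 0.119 to 0.188 FPKM, covering counting error only. Of the table's lines, 1 was blank, emptied before analysis. Columns of other samples numbered 0.

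Genes at 1 FPKM or more in at least 3 libraries (12237) were fitted with limma 3.58.1 in R 4.3.3 on log2(FPKM + 1), with group means over all 12 libraries, a trended variance, two-sided p-values and adjustment over all genes by Benjamini-Hochberg at 0.05. This scale understates changes of low genes. The fit was tested on simulated data. Alternatives changed the pseudocount, filter, scaling, variance model, threshold and libraries, used voom, added an rRNA-share term or the replicate number as a block; the fit of 8 libraries of higher rRNA share was chosen after seeing the data. Libraries of the same number share a batch in the labels, which pairs them. Of 18 such pairs 4 had deviations correlated above 0.1 (-0.217 to 0.44). Their mean correlation was -0.0034, against -0.00066 for pairs of unlike number from different groups. The 9 genes and all lists were chosen with earlier results of these data known. Genes named by rule outside the 9 were Per1 and list members that passed or had the lowest p in the macrophage list. All ligands and relatives and the 2 most correlated genes per marker were named too. Other lists are given by counts and summed levels. Named besides were Spi1, Ctsk, S100a9 and Tpsb2, which the rule on p did not pick. A gene and a motif that these rules would name are not reported here.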

Additional observations from a re-analysis of the deposited data

How the results depend on the processing

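The counts of markers called were 0 in females, averaged over the sexes, for the difference and between controls under every alternative run. In males 1 marker, Adgre4, was called with the rRNA-share term and at a threshold of 0.1, and 0 to 1 when single libraries were left out, where leaving out male control 3 gave the call; the cause was not tested. Genes called over the whole table in males numbered 64 without male control 3, 60 with the rRNA term and 27 at the threshold of 0.1, against 1 in the fit reported and 0 to 7 in the other 24 alternatives. Fitting the replicate number as a block, shared by all groups or within sex, called 0 markers in each comparison, so no call of a marker changed, although the Cx3cr1 call was lost within sex.

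Direction held in 241 of 242 alternative values of the male changes, 213 of 242 of the female ones and 220 of 233 of the differences. Many of these values could not move. A change of filter, variance trend or threshold, or leaving out libraries of the other sex, returns the same fitted change within a sex. The counts therefore include repeats of the main value and overstate the number of separate checks. Among the female log2 changes, without the 3 libraries of high interferon score Lyz2 was -0.17, F13a1 -0.11, Adgre1 -0.20, Adgre4 -0.036, Ms4a7 -0.23, Mertk -0.084, Csf1r 0.0065 and Cd68 0.015. With the rRNA-share term Lyz2 was -0.055, Adgre1 -0.066, Adgre4 -0.13 and Mertk -0.035. In the 8 libraries of higher rRNA share Lyz2 was -0.31, Adgre1 -0.48, Adgre4 -0.097, Ms4a7 -0.63 and Mertk -0.25; there the male change of Ms4a7 was 0.011 and the differences were -0.013 for Lyz2, -0.23 for Adgre1, -0.028 for Mrc1 and -0.64 for Ms4a7. The difference for Ms4a7 was -0.0073 without the 3 libraries, and that for Cd68 0.12, or 0.0015 by voom. Leaving out single libraries, female changes ranged from -0.14 to 0.24 for Lyz2, -0.12 to 0.35 for Adgre1, -0.13 to 0.17 for Adgre4, -0.040 to 0.85 for Ms4a7 and -0.071 to 0.23 for Mertk, and the Cd68 difference from -0.11 to 0.087. No direction turned for female F13a1 (0.011 to 0.30), male Ms4a7 (-0.41 to -0.095) or male Cd68 (-0.21 to -0.053), though these moved by over 1.5 times. The causes were not tested. Mertk was not tested at the filter of 5 FPKM, and fits of 2 groups give no difference or average. With 3 libraries a group and a spread pooled over both sexes, intervals of the log2 changes were wide, up to 1.02 on either side for Ms4a7.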
